A study of Mus musculus with 90 samples.

Results

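The effect of the PDE10A inhibitor PF-02545920 at 1.0 mg/kg was compared between the striatum and the cortex of Q175 mice. The comparison used 34 of the 90 RNA-seq libraries of the series, chosen by their labels and not by measured values. They were the striatum and the cortex of 10 Q175 mice at 1.0 mg/kg (5 females and 5 males) and of 7 Q175 mice on vehicle (5 females and 2 males). All 17 mice were of the C57BL6/J strain, homozygous for the Q175 allele and 9 months old, and had been dosed by mouth once a day since the age of 5 weeks. Q175 puts an expanded CAG tract into the mouse's own Htt gene and serves as a model of Huntington's disease. Controls carried the allele too, so no wild-type tissue enters the tissue difference. Each library was 1 tissue of the right hemisphere of 1 mouse.

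The quantity tested was the log2 fold change (1.0 mg/kg over vehicle) in striatum minus that in cortex, with each mouse as a block. It is called the tissue difference below. A positive value can come from a rise in striatum or a fall in cortex, so the values of both tissues are given beside it. Genes were called at an adjusted p under 0.05 in edgeR's quasi-likelihood test. Levels are CPM, counts scaled to a common library size.

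PDE10A is a phosphodiesterase that breaks down cyclic AMP and cyclic GMP, and it is concentrated in the medium spiny neurons of the striatum and sparse in the cortex. Raised cyclic AMP activates protein kinase A, which phosphorylates the transcription factor CREB. CREB binds cyclic AMP response elements in promoters and drives immediate early genes such as Fos, Junb, the Egr family and Nr4a1, which also answer to calcium and MAP kinase signals when neurons fire.

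Libraries held 30.9M to 42.9M counts in striatum and 38.6M to 45.2M in cortex. The tissue labels held against markers: in every mouse, 22 of 25 genes of medium spiny neurons had their higher level in striatum and 12 of 14 genes of cortical excitatory neurons had theirs in cortex. The cortex libraries of dosed females F1 and F4 stood apart in Htt, the knock-in gene, at 72.5 and 78.6 CPM, whereas Htt was at 123 to 146 CPM in the other dosed cortices and at 122 to 135 CPM in vehicle cortices. They stood apart beyond Htt too. Their summed level of the mitochondrially encoded genes was the highest of the dosed cortices, at 99200 and 99700 CPM (next 87100 CPM, in F2). In the striatum Htt had a lowest, median and highest value of 109, 121 and 140 CPM in dosed mice and of 108, 111 and 125 CPM in vehicle mice. The column names also carry a number, L1 to L8, whose meaning the labels do not give. It was L1 for 5 of 10 dosed striata, 1 of 10 dosed cortices and 0 of 14 vehicle libraries, and results without those mice are given below. The tissue difference of Htt was 0.21 ± 0.106 (SE, adjusted p = 0.175), and a two-sided exact permutation test over the mice gave p = 0.0825. Pde10a, the drug target, had 504, 683 and 791 CPM in dosed striata against 650, 707 and 784 CPM in vehicle striata. In cortex Pde10a had 64.7, 80.2 and 120 CPM in dosed mice against 75.5, 91.8 and 114 CPM in vehicle mice. Its tissue difference was -0.02 ± 0.119 (adjusted p = 0.948, exact permutation p = 0.919).

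Immediate early and CREB-target genes were higher in striatum relative to cortex after 1.0 mg/kg. The activity and CREB-target list was written with earlier results of these data known, so its excess over all genes is not independent support. Of its 33 genes, 18 were called higher and 1 (Scg2, a secretogranin) lower. Of all 17500 genes tested, 6.54% were called higher and 6.39% lower. With an offset per library for gene GC content and length, 10 of the 33 were called higher and 0 lower, against 0.577% and 0.634% of all genes. With GC offsets alone 12 were called higher and 0 lower, against 1.01% and 1.3%. Below, offsets without further words are those for GC and length. The median tissue difference of the list was 0.45 without and 0.39 with offsets, and that of all genes tested was 0.00 without and 0.01 with offsets. Without dosed F1 and F4, 19 members were called higher and 0 lower (all genes 5.72% and 2.63%), and 15 higher and 0 lower with offsets as well (all genes 0.563% and 0.27%). Without the 5 dosed mice that had an L1 library, an alternative added after the data were seen, 7 were called higher and 0 lower (all genes 0.189% and 0.0515%), and with offsets 1 higher and 0 lower (all genes 0.0172% and 0.0114%). Within females 18 were called higher and 1 lower (median 0.48, all genes 13.3% and 10.5%), and within males, with 2 vehicle mice, 1 higher (median 0.31, all genes 0.0672%), and the sexes were not compared by a test. In bulk tissue, fewer cells of a type and less RNA per cell cannot be told apart.

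By their medians, the difference lay on the striatal side. The effects within 1 tissue, here and below, come from separate fits of all 45 libraries of that tissue, which share 1 estimate of the spread and include the other doses and 9 wild-type mice. With only the 17 libraries of both groups, called genes in striatum were 317 higher and 77 lower in place of 138 and 48, and in cortex 882 and 917 in place of 1924 and 1725. In these fits, the median effect of 1.0 mg/kg on the list was 0.38 in striatum and -0.06 in cortex. In striatum 5 of 33 members were called higher, against 0.797% of all genes higher and 0.277% lower, and in cortex 0 of 33 in either direction, against 10.9% of all genes higher and 9.8% lower. With offsets, the striatal median stayed at 0.38, but 0 of 33 members were called in striatum, against 0.0289% of all genes.

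Junb encodes an AP-1 subunit. It had 35.8, 52.6 and 75.9 CPM (lowest, median, highest) in dosed striata, against 21.7, 24.1 and 37.4 CPM in vehicle striata. Only the highest vehicle striatum, that of female F1, reached into the dosed range. In cortex Junb had 32.2, 40.4 and 62.7 CPM in dosed mice against 32.2, 43.9 and 72.4 CPM in vehicle mice, and the groups overlapped throughout. Within a mouse, the log2 level in striatum minus that in cortex ran from -0.38 to 0.56 in dosed mice and from -1.35 to -0.54 in vehicle mice, with no overlap. The tissue difference was 1.11 ± 0.131 (adjusted p = 0.000138), and 0.91 with offsets (adjusted p = 0.00315).

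Fos, the partner of JUN proteins in AP-1, showed the same arrangement at lower levels. It had 9.43, 15.8 and 27.8 CPM in dosed striata against 4.38, 8.72 and 18.4 CPM in vehicle striata, and these ranges overlapped. In cortex Fos had 15.8, 23.4 and 38.1 CPM in dosed mice against 13.2, 27.6 and 43.8 CPM in vehicle mice. Mice with high Fos in striatum tended to have high Fos in cortex, and the difference within a mouse separated the groups: -1.18 to -0.29 in dosed mice, -1.89 to -1.25 in vehicle mice. The tissue difference was 0.93 ± 0.121 (adjusted p = 0.000502), and 0.95 with offsets (adjusted p = 0.000634). In striatum alone the change of Fos was 0.83 ± 0.287 and missed the threshold (adjusted p = 0.106).

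The zinc-finger factors of the Egr family are immediate early regulators of synaptic genes. Egr2 had 2.63, 5.91 and 14.2 CPM in dosed striata against 1.40, 2.75 and 4.86 CPM in vehicle striata. Dosed F2, M1 and M2 were the highest, at 12, 14.2 and 12.4 CPM, so the spread among dosed mice was wide. The tissue difference of Egr2 was 1.5 ± 0.288 (adjusted p = 0.0091). Egr4 had 16.6, 23.5 and 36.4 CPM in dosed striata against 13.2, 14.5 and 17.5 CPM in vehicle striata, and differed by 0.95 ± 0.147 (adjusted p = 0.00284). In cortex Egr4 leaned the other way, with 16.4, 18.4 and 24.1 CPM in dosed mice against 18.0, 23.0 and 33.5 CPM in vehicle mice. Egr3 differed by 0.66 ± 0.103 and was called with offsets too (0.63, adjusted p = 0.0048). Egr1 differed by 0.78 ± 0.13 (adjusted p = 0.00426) and missed the threshold with offsets (0.61, adjusted p = 0.0595).

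Nr4a1 is an orphan nuclear receptor induced by cyclic AMP. It had 52.2, 88 and 134 CPM in dosed striata against 25.4, 45.7 and 95.4 CPM in vehicle striata, where female F1 was again far above the rest. The tissue difference was 0.93 ± 0.134 (adjusted p = 0.00101), and 0.83 with offsets (adjusted p = 0.0087). Its relatives Nr4a3 and Nr4a2 gave 0.77 (adjusted p = 0.0249, not called with offsets) and 0.49 (adjusted p = 0.429).

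**Figure D1:**
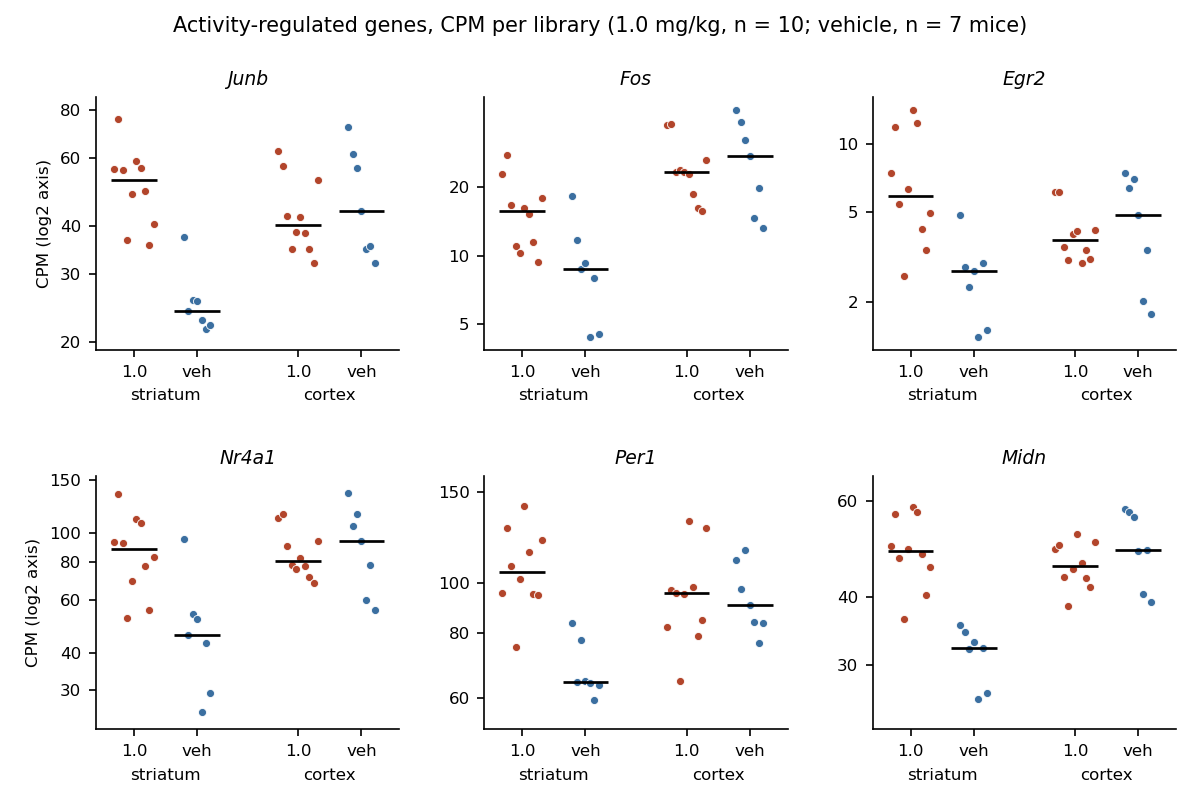
CPM per library on log2 axes for 6 activity-regulated genes, with striatum on the left and cortex on the right of each panel. Points are mice (red, 1.0 mg/kg, n = 10, and blue, vehicle, n = 7) and bars are medians. In striatum the dosed medians lie above the vehicle medians for all 6 genes, for example 52.6 against 24.1 CPM for Junb, and in cortex the points of both groups overlap.

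Per1 is a clock gene with a cyclic AMP response element that light and cyclic AMP induce. It had 75.4, 105 and 141 CPM in dosed striata against 59.4, 64.4 and 83.9 CPM in vehicle striata. In cortex Per1 had 64.6, 95.6 and 132 CPM in dosed mice against 76.5, 90.6 and 116 CPM in vehicle mice. The tissue difference was 0.64 ± 0.0544 (adjusted p = 1.25e-06), and 0.41 with offsets (adjusted p = 0.00361). Dosed and vehicle striata overlapped in Per1, but striatum minus cortex within a mouse did not: it ran from -0.08 to 0.40 in dosed mice and from -0.60 to -0.37 in vehicle mice. Sik1, a kinase that restrains CREB coactivators, had 11.1, 15.3 and 20.6 CPM in dosed striata against 8.42, 11.3 and 15.3 CPM in vehicle striata, a tissue difference of 0.61 ± 0.077 (adjusted p = 0.000359). Vgf, a neuropeptide precursor, had 125, 148 and 166 CPM in dosed striata against 101, 110 and 123 CPM in vehicle striata, with no overlap, and differed by 0.59 ± 0.0821 (adjusted p = 0.000806). Gadd45b, a stress-inducible gene, differed by 0.43 ± 0.0895 (adjusted p = 0.0114), and its values within mice overlapped between the groups.

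Genes outside the list were called higher too. Midn, Kdm6b, Gpr3 and Irs2 were chosen after their values were seen, and so were the list members Egr1, Egr3, Vgf, Gadd45b, Nr4a2, Nr4a3, Penk, Pdyn, Bdnf, Crem and Npas4, Rpl14 and Usp2, and the promoters shown. Midn, which encodes the nuclear protein midnolin, had 36.5, 48.5 and 58.3 CPM in dosed striata against 26.1, 32.3 and 35.5 CPM in vehicle striata, with no overlap. Its tissue difference of 0.73 ± 0.0586 had the smallest p of all genes (adjusted p = 8.5e-07). Kdm6b, a histone H3K27 demethylase, differed by 0.63 ± 0.0724 (adjusted p = 0.00011), with 0.41 in striatum (adjusted p = 0.0333) and -0.23 in cortex (adjusted p = 0.028) in the separate fits. Gpr3, a receptor that raises cyclic AMP without a ligand, differed by 0.65 ± 0.112 (adjusted p = 0.00629). Dnajb5, a chaperone of the HSP40 family, differed by 0.44 ± 0.0449 (adjusted p = 1.95e-05). Irs2, an insulin receptor substrate, differed by 0.71 ± 0.114 (adjusted p = 0.00368), and in cortex it fell by 0.40 on the log2 scale (adjusted p = 0.00253). These genes were called with offsets too, but the sizes given are without offsets. Midn, Kdm6b and Irs2 have a GC content of 59.3%, 59.6% and 56.6%. Without offsets, all genes in bins of median GC 56.6% and 59.7% had median tissue differences of 0.12 and 0.20.

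Not every activity gene was called. The neuropeptide genes Penk and Pdyn, which mark indirect-pathway and direct-pathway medium spiny neurons, had tissue differences of -0.03 ± 0.165 and -0.06 ± 0.149. Bdnf, which encodes a neurotrophin, gave -0.30 ± 0.318, Crem, a CREB relative, -0.04 ± 0.0977, and Npas4, a calcium-driven factor, 0.23 ± 0.0887 (adjusted p = 0.0807). None of these 5 was called, which does not show that they were unchanged. Striatum minus cortex values within mice did not overlap between the groups for 7 of 33 list members, all higher in dosed mice, against 0.331% of all genes.

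**Figure D2:**
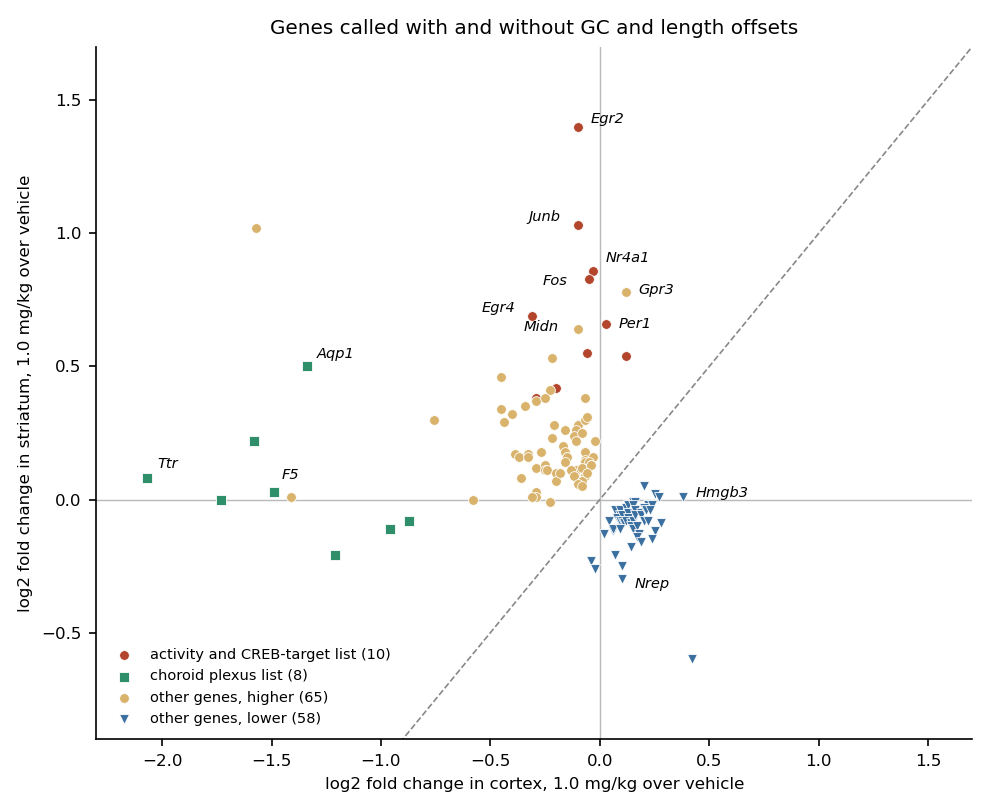
Log2 fold change in striatum (vertical) against that in cortex (horizontal), 1.0 mg/kg over vehicle, for 141 genes called with and without GC and length offsets. A gene on the dashed line has equal effects in both tissues. Activity genes such as Junb (striatum 1.03, cortex -0.10) lie high above zero on the vertical axis, choroid plexus genes such as Ttr (striatum 0.08, cortex -2.07) lie far to the left, and most genes called lower lie to the right of zero.

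Promoters of the activity genes are shown because CREB binds TGACGTCA, and its 5-base core TGACG, in promoters of cyclic AMP-induced genes. Sequences are RefSeq promoter windows of 300 bases on GRCm38.p6 (250 before to 50 after the start), and the 100 bases around the core nearest to the start are given, on the gene's strand. Capitals mark TGACG or its reverse complement CGTCA.
Fos, chr12:85473776-85473875 (+): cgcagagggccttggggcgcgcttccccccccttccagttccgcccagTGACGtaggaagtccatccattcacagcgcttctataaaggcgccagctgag
Junb, chr8:84978803-84978902 (-): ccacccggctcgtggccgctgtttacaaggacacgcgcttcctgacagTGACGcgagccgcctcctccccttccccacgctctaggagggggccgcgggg
Egr4, chr6:85513647-85513746 (-): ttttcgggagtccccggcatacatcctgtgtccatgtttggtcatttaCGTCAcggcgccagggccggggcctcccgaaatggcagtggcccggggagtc
Nr4a1, chr15:101266758-101266857 (+): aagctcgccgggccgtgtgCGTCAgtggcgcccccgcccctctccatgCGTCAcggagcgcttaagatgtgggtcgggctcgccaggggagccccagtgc
Per1, chr11:69099972-69100071 (+): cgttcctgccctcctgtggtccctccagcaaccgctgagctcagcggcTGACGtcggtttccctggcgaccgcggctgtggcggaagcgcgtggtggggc
Midn, chr10:80148128-80148227 (+): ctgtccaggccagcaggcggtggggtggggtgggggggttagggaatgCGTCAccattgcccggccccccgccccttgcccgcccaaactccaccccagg

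The core nearest to the start began at -66 in Fos, -106 in Junb, -109 in Egr4, -40 in Nr4a1, -132 in this window of Per1 and -96 in Midn. The 5-base core, on either strand, was in 6 of 7 list members that were higher with and without offsets and had a promoter entry (85.7%). In the whole list, which was composed of activity and CREB-target genes, 18 of 23 with an entry held it (78.3%). The core was in 31 of the 60 genes with an entry among the 85 called higher in both fits (51.7%), in 16 of 46 called lower in both (34.8%) and in 32.7% of all genes tested with an entry. Of all 32851 windows 20.8% held it. The full TGACGTCA, which contains the core, was in 0 of those 7 members and in 3 of 23 of the whole list (13%). It was in 6 of 60 genes higher in both fits (10%), in 1 of 46 lower in both (2.17%) and in 3.26% of all genes tested. Its 6 carriers among the higher genes included Irf2bpl (tissue difference 0.46) and Slc25a25 (0.19), a mitochondrial ATP-Mg carrier. The core holds a CG pair, so its share also moves with promoter GC content. A match is a description of letters in the window and was not tested as a site.

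The activity genes were set beside the other doses of the series. At 3.2 mg/kg (9 mice) and 0.32 mg/kg (10 mice) the same 7 vehicle mice were the controls, so these 3 sets of values are not independent. Values here are without offsets unless stated. Without offsets, 2888 genes were called higher and 2377 lower at 0.32 mg/kg, and 188 and 16 at 3.2 mg/kg. With offsets these counts were 620 and 297, and 226 and 25. The tissue difference of Junb over the 3 doses, low to high, was 0.81 ± 0.206, 1.11 ± 0.131 and 2.35 ± 0.206. Fos had 0.37 ± 0.163, 0.93 ± 0.121 and 2.24 ± 0.25 in the same order, and Egr2 had 0.66 ± 0.419, 1.5 ± 0.288 and 3.54 ± 0.286. For Vgf the values were 0.70 ± 0.0972, 0.59 ± 0.0821 and 0.78 ± 0.0981, and with offsets 0.31, 0.30 and 0.72. A direct comparison of 1.0 with 3.2 mg/kg, which uses no vehicle mouse, called 24 of 33 list members lower at 1.0 mg/kg and 0 higher, against 1.43% and 1.3% of all genes. Junb differed between those doses by -1.22 ± 0.182 (adjusted p = 0.000529), Fos by -1.31 ± 0.213 (adjusted p = 0.00134) and Per1 by -0.62 ± 0.1 (adjusted p = 0.0013). Egr3, at -0.36 ± 0.152 (adjusted p = 0.157), and Vgf, at -0.18 ± 0.0928 (adjusted p = 0.233), were not called, though Vgf was with offsets (-0.41, adjusted p = 0.000809).

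**Figure D3:**
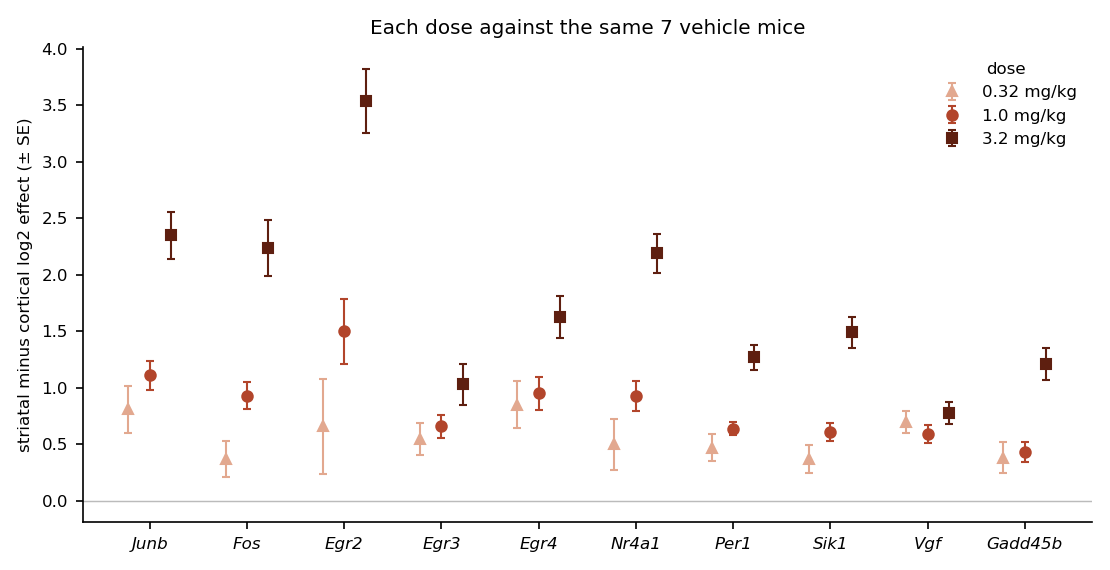
Tissue difference (striatal minus cortical log2 effect, ± SE) of 10 activity genes at the 3 doses, low to high, each against the same 7 vehicle mice. The value at 1.0 mg/kg is below that at 3.2 mg/kg for all 10 genes, for example 1.11 against 2.35 for Junb. Values are without offsets.

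Genes of the choroid plexus, the epithelium that makes cerebrospinal fluid, had tissue differences among the largest of the named genes, with the larger change in cortex. Of 12 list members, 8 were called higher and 0 lower without offsets (median 1.08, against 6.54% and 6.39% of all genes), and the same 8 with offsets (against 0.577% and 0.634%). Without dosed F1 and F4, 8 were called higher (all genes 5.72%), and 3 with offsets as well (all genes 0.563%). Ttr, which encodes the thyroxine carrier transthyretin, had 22.3, 53.4 and 141 CPM in dosed striata against 24.9, 41.8 and 132 CPM in vehicle striata. In cortex Ttr had 11.1, 16.2 and 310 CPM in dosed mice against 28.6, 221 and 402 CPM in vehicle mice. Of the dosed cortices 9 of 10 were at 54.6 CPM or less and female F2 was at 310 CPM, while 5 of 7 vehicle cortices were at 144 CPM or more and F3 and F4 were at 28.6 and 34.5 CPM.

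The tissue difference of Ttr was 2.79 ± 0.525 (adjusted p = 0.00846). The separate fits within 1 tissue gave 0.08 ± 0.452 in striatum and -2.07 ± 0.901 in cortex (adjusted p = 0.0955). Those fits use more libraries and no mouse block, so their values need not add up to the tissue difference. Folr1, a folate receptor, differed by 2.01 ± 0.415, Aqp1, a water channel, by 1.94 ± 0.374, F5, coagulation factor V, by 1.71 ± 0.372, Otx2, a homeobox factor, by 1.17 ± 0.307 and Kl, which encodes klotho, by 0.88 ± 0.212. In cortex alone 2 of 12 members were called, Clic6 and Prlr, both lower, where 9.8% of all genes were called lower. With offsets 0 of 12 were called in cortex, against 422 higher and 351 lower of all 17603 genes. The summed level of the 12 genes was 226, 238 and 654 CPM in dosed cortices, against 252, 542 and 797 CPM in vehicle cortices. In striatum the sum was 344, 424 and 536 CPM in dosed mice against 347, 410 and 593 CPM in vehicle mice. Enpp2, which encodes the secreted enzyme autotaxin, is also made by oligodendrocytes and was not called, carried much of these sums, with a median of 209 CPM in dosed cortices against 283 CPM in vehicle cortices. In the wild-type vehicle cortices of the series the sum was 227, 273 and 945 CPM. In Q175 cortices at the other doses it was 230, 318 and 1750 CPM at 0.32 mg/kg and 223, 264 and 748 CPM at 3.2 mg/kg. The Q175 vehicle cortices thus had the highest median of these groups. How much choroid plexus each cortex sample carried was not tested. Within females 0 of 12 members were called, where 13.3% of all genes were higher and 10.5% lower. Within males, with 2 vehicle mice, 8 of 12 were called higher, against 0.0672% of all genes. At 3.2 mg/kg 0 of 12 were called (all genes 1.08% higher and 0.092% lower), and so too at 1.0 against 3.2 mg/kg, where Ttr differed by 1.49 ± 0.698 (adjusted p = 0.195).

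**Figure D4:**
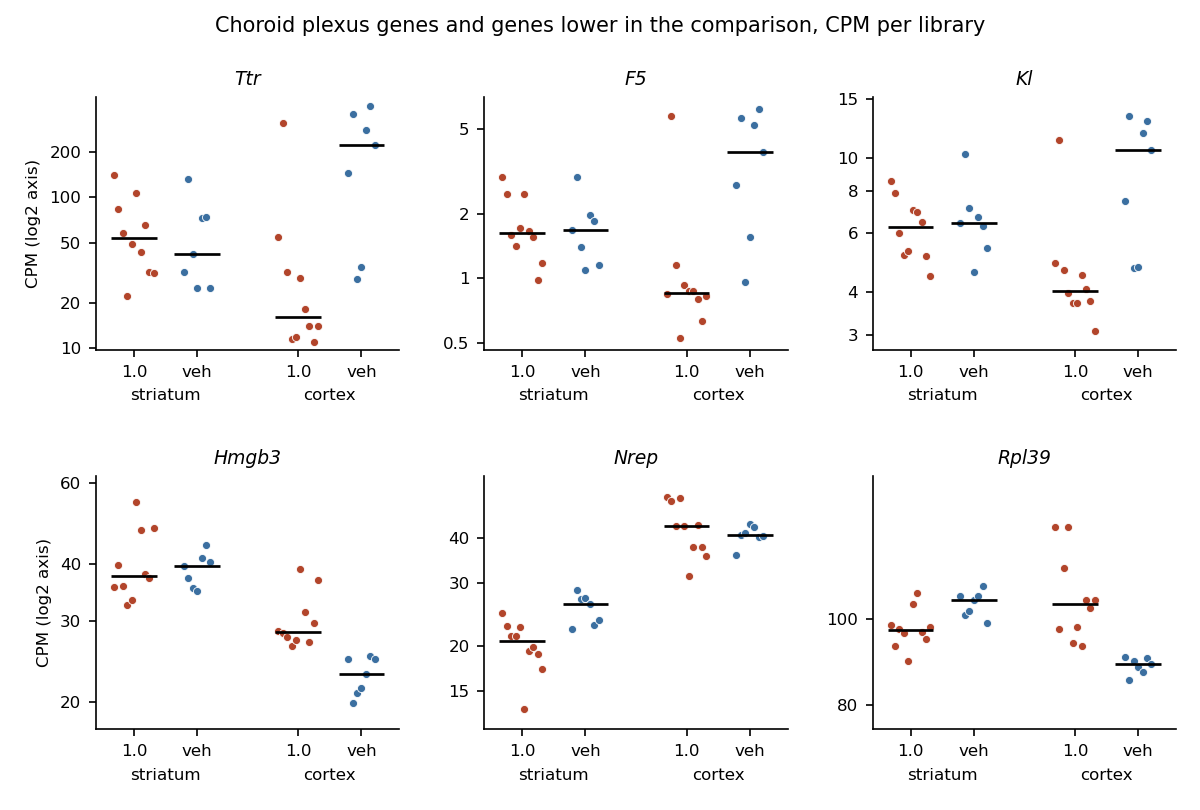
CPM per library on log2 axes for 3 choroid plexus genes (Ttr, F5, Kl) and 3 genes lower in the comparison (Hmgb3, Nrep, Rpl39), drawn as mice (red, 1.0 mg/kg, and blue, vehicle) with medians as bars. In cortex 9 of 10 dosed mice lie low for Ttr and F2 stands alone at 310 CPM. Hmgb3 and Rpl39 are higher in dosed than in vehicle cortices, and Nrep is lower in dosed striata.

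Among genes with lower values in striatum relative to cortex, the changes were smaller. Nrep, a neuronal regeneration-related protein gene, had 13.4, 20.7 and 24.7 CPM in dosed striata against 22.4, 26.2 and 28.6 CPM in vehicle striata. In cortex Nrep had 31.3, 43.2 and 52.0 CPM in dosed mice against 35.9, 40.8 and 43.7 CPM in vehicle mice. Its tissue difference was -0.39 ± 0.0528 (adjusted p = 0.000664), and the values within mice did not overlap. The striatal fall of Nrep was called without offsets (-0.30, adjusted p = 0.0294). With offsets 0 genes were called lower in striatum, so that call did not hold. Hmgb3, a chromatin-binding HMG-box gene, was called higher in cortex (0.38, adjusted p = 0.000925) and not called in striatum (0.01, adjusted p = 0.95). It had 26.5, 28.5 and 39.0 CPM in dosed cortices against 19.9, 23.1 and 25.2 CPM in vehicle cortices, with no overlap. In striatum Hmgb3 had 32.5, 37.7 and 54.4 CPM in dosed mice against 34.9, 39.6 and 44.0 CPM in vehicle mice. The tissue difference of Hmgb3 was -0.36 ± 0.0497 (adjusted p = 0.000724).

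Rpl39, a ribosomal protein gene, had 93.3, 104 and 127 CPM in dosed cortices against 85.4, 89.0 and 90.7 CPM in vehicle cortices, and differed by -0.35 ± 0.0658 (adjusted p = 0.0084). Rpl9 and Rpl27a, also of the ribosome, and Atp5mpl, an ATP synthase subunit, gave -0.29, -0.30 and -0.35, and each was called higher in cortex (0.22, 0.18 and 0.25). Rpl14 was not named by the rule and had one of the smallest p with offsets (-0.27, adjusted p = 0.000324). Ribosomal protein genes have near-identical pseudogenes, and how shared reads were divided is not given. Of the remaining lower genes, Krt10, a keratin, gave -0.35, Pigc, of the GPI anchor pathway, -0.32, Fut9, a fucosyltransferase, -0.27, and Tmsb10, an actin-binding thymosin, -0.27. Among higher genes outside the groups above, Dmrta2, a factor of cortical development, gave 0.89 ± 0.148 (adjusted p = 0.00426), with 0.696, 0.857 and 0.983 CPM in dosed striata against 0.509, 0.603 and 0.734 CPM in vehicle striata, and 1.31, 1.56 and 2.33 CPM in dosed cortices against 1.85, 2.09 and 2.58 CPM in vehicle cortices.

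Over all 17500 genes, 2262 were called (12.9%), 1144 higher and 1118 lower. Without vehicle F2 the counts were 368 higher and 599 lower, and at least 1 of both counts also moved by over 1.5 times without vehicle F1, F4, F5 or M1 or dosed F1, F3, F4, F5, M1, M2 or M4. The calls also moved with gene GC content. Called higher genes had a median GC content of 57.3% and called lower genes of 43.8%, where all genes tested had 49.8%. Over 10 equal bins of genes ordered by GC content, the median tissue difference went up step by step, with -0.14 at a median GC of 39.6% and 0.20 at 59.7%. With GC and length offsets these medians were 0.01 and 0.01. The offsets are fitted to this trend in each library, so the flat medians follow by construction. Offsets left 212 called genes (1.21%), 101 higher and 111 lower, and offsets for GC alone left 177 higher and 227 lower.

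The slope of log2 level on GC content, per 10 GC points and library, had a lowest, median and highest value of -0.128, 0.061 and 0.133 in dosed striata and of -0.0664, -0.0475 and 0.0146 in vehicle striata. In cortex it was -0.116, -0.0281 and 0.0374 in dosed mice and 0.00313, 0.0439 and 0.0936 in vehicle mice. Within mice, striatum minus cortex averaged 0.0651 ± 0.112 in dosed and -0.0931 ± 0.0454 in vehicle mice (SD, n = 10 and 7), a difference of 0.158 with p = 0.00499 in a two-sided exact permutation test.

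**Figure D5:**
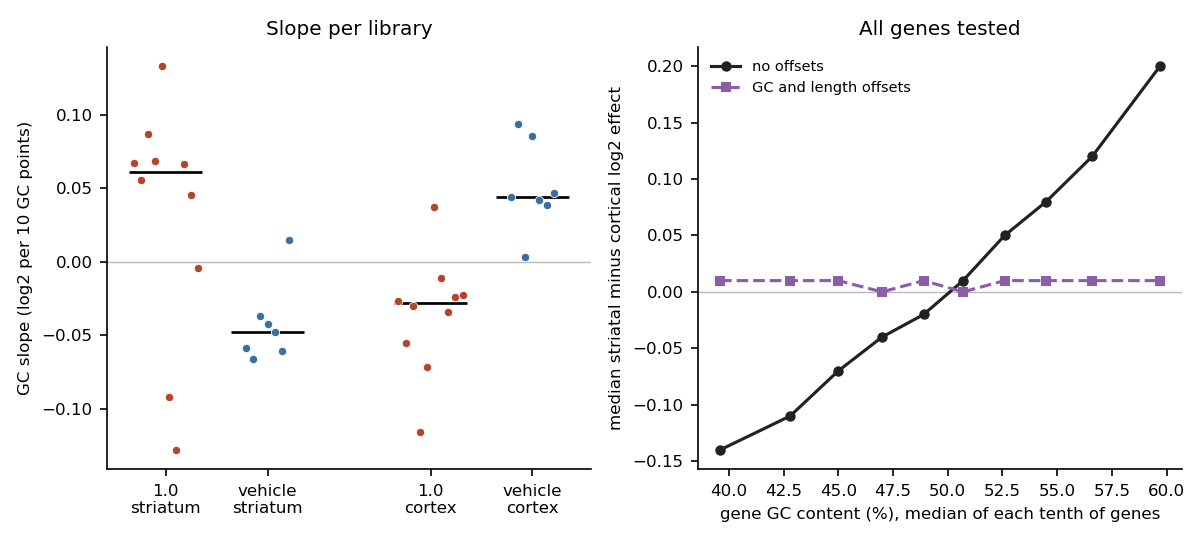
Left, slope of log2 level on gene GC content for each library (points, mice, and bars, medians). Right, median tissue difference in 10 equal bins of genes ordered by GC content, without offsets (black) and with GC and length offsets (purple). Slopes of dosed and vehicle mice lie in opposite order in striatum (medians 0.061 and -0.0475) and cortex (-0.0281 and 0.0439). The offsets flatten the right-hand curve by construction.

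Called with and without offsets in the same direction were 144 genes (0.823%), 85 higher and 59 lower (0.486% and 0.337% of genes tested), which is 6.37% of the calls without offsets and 67.9% of those with them. Their median GC content was 52.8% for higher and 51.4% for lower genes. The 85 higher genes had a median effect of 0.18 in striatum and -0.20 in cortex. Of them 15 were called higher in striatum (all genes 0.797%) and 36 called lower in cortex (all genes 9.8%). The 59 lower genes had medians of -0.08 in striatum and 0.15 in cortex, and 45 were called higher in cortex (all genes 10.9%). Values within mice did not overlap between the groups for 21 of the 85, all above, and 19 of the 59, all below, against 0.331% and 0.411% of all genes (0.743% in either direction). Both sets were chosen by the tissue difference in these same mice. Neither the missing overlap nor the calls within 1 tissue are therefore separate support for them. Without dosed F1 and F4, 133 of the 144 were called, and 82 also with offsets then.

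Genes of mitochondrial respiration were called lower without offsets, few with GC offsets alone and none with GC and length offsets. All 13 mitochondrially encoded genes, subunits of the respiratory chain and of ATP synthase, were called lower, with a median of -0.33, against 6.39% of all genes. With GC offsets alone 4 of 13 were called lower (mt-Cytb, mt-Co2, mt-Co3 and mt-Nd3) and the median was -0.16, against 1.3% of all genes. With GC and length offsets 0 of 13 were called and the median was -0.02, against 0.634%. Their summed level in cortex was 70300, 74700 and 99700 CPM in dosed mice against 64900, 70800 and 75400 CPM in vehicle mice. In striatum it was 75400, 86800 and 89900 CPM in dosed mice against 85500, 91300 and 102000 CPM in vehicle mice. By gene, mt-Cytb, of complex III, gave -0.36 ± 0.0654 (adjusted p = 0.00709) and -0.08 with offsets (adjusted p = 0.26), and mt-Co2, of complex IV, gave -0.32 ± 0.06 and 0.00. Of 25 nuclear genes of the respiratory chain 9 were called lower without offsets, such as Uqcrb (-0.29 and, with offsets, 0.02). With GC offsets alone 2 of 25 were called lower (Cox4i1 and Cox6a1), and with GC and length offsets 0. Of 22 cytosolic ribosomal protein genes on the list 4 were called lower without offsets. With GC offsets alone 2 of 22 were called lower (Rpl32 and Rps14, median -0.09), and Rps14 was not among those 4. With GC and length offsets 0 were called (median 0.01).

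Genes that read out medium spiny neurons and their cyclic nucleotide signalling were called without offsets near the shares of all genes (6.54% higher, 6.39% lower). With GC and length offsets 0 were called, against 0.577% and 0.634% of all genes, at which lists this short would hold hardly any. In the cyclic nucleotide list of 38 genes (37 tested), 3 were called higher and 2 lower without offsets. They were Pde4a, a cyclic AMP phosphodiesterase (0.20 ± 0.038), Adcy3, an adenylate cyclase (0.22 ± 0.0429), and Nos1, neuronal nitric oxide synthase (0.30 ± 0.0845), which were higher, and the guanylate cyclase subunits Gucy1a1 (-0.20 ± 0.0457) and Gucy1b1 (-0.16 ± 0.0386), which were lower. With offsets Pde4a and Adcy3 were both at 0.03 and Gucy1a1 at -0.13. In the medium spiny neuron list, 3 of 25 were called higher (Bcl11b, Rasgrp2 and Tmem158) and 1 lower (Arpp19), 1 with GC offsets alone (Bcl11b) and 0 with GC and length offsets, where the median was -0.06. Of the 29 voltage-gated channel genes 4 were called higher, 0 with GC offsets alone and 1 with GC and length offsets, against 6.54%, 1.01% and 0.577% of all genes. That 1 was Cacna1c, which encodes the L-type calcium channel Cav1.2 (0.44 ± 0.125, and 0.27 with offsets, adjusted p = 0.0122). With GC offsets alone Cacna1c was at 0.44 (adjusted p = 0.0567), and without offsets it lost its call in 4 of 17 fits that left out 1 mouse (vehicle F2, F4, F5 or M1). Cacna1c had 34.5, 63.8 and 67.9 CPM in dosed cortices against 65.6, 69.6 and 73.7 CPM in vehicle cortices.

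Counts of calls moved with the number L1 to L8 in the column names, and its part in the results was not tested beyond these fits. With that number as a factor, which left 8 residual degrees of freedom, edgeR called 0 genes, with 2187 of 17500 at an unadjusted p under 0.05 against 5396 without it. The list median was then 0.40 for activity genes. Junb kept 1.11 ± 0.234 and Midn 0.71 ± 0.105, whereas Fos was at 0.40 ± 0.188 and Nr4a1 at 0.65 ± 0.226. Without the 5 dosed mice that had an L1 library, 33 genes were called higher and 9 lower. Of the activity list 7 were then called higher and 0 lower (median 0.42), with Junb at 1.11, Fos at 0.98, Per1 at 0.62 and Midn at 0.72. With offsets as well, 3 genes were called higher (Fos, Kdm6b and Ttr) and 2 lower (Rpl14 and Usp2).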

How the data were processed

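Estimated counts per gene were deposited by the authors for all 90 libraries, and FPKM values, which the authors also deposited, served as an alternative. Whole values, to a tolerance of 1e-06, made up 81.5%, and the others were rounded. CASAVA 1.8.2 is named per the submitters' processing notes without a role. Not given in the sources used here: aligner, genome build, annotation and strandedness. GENCODE M21 (GRCm38) named 36723 of 38561 gene IDs, with 99.74% of counts.

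Genes were filtered with filterByExpr, scaled by TMM and fitted with edgeR 4.0.16 (R 4.3.3) by quasi-likelihood, with mouse as block, and p-values were adjusted by Benjamini and Hochberg at 0.05. Within-tissue fits used 45 libraries each. Offsets were per-library smooth splines (df 5) on GC content and length. CPM used TMM factors over all 90 libraries, and log2 CPM a prior count of 2. Fits were tested on simulated data. Alternatives used limma 3.58.1, DESeq2 1.42.0 and other settings. Libraries of 1 mouse deviated together (median correlation 0.371, lowest 0.176, 17 of 17 pairs over 0.1), and the column names give the mouse.

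Named genes were Htt, Pde10a, the 10 higher and 10 lower of largest effect with mean log2 CPM of at least 0 that were called in both fits, and up to 4 members of each of the 28 lists by p. Predicted genes were passed over. Members and lists were chosen with earlier results of these data known. The search for TGACG was added after the data were examined.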

Additional observations from a re-analysis of the deposited data

Results flagged for a closer look

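A single library stood far from the rest of its group for 10 genes and for the GC slope, among 152 sets of 1 gene in 1 group tested, where chance flags about 1 in 20. The dosed cortex of female F2 was highest for 6 choroid plexus genes: Ttr at 310 CPM (next 54.6), F5 at 5.78 CPM (next 1.15), Otx2 at 1.81 CPM (next 0.658), Kl at 11.3 CPM (next 4.9), Aqp1 at 2.30 CPM (next 0.668) and Folr1 at 2.55 CPM (next 0.594). The vehicle striatum of female F1 was highest for Junb, at 37.4 CPM (next 25.8), and for Nr4a1, at 95.4 CPM (next 53.6). Dosed cortex M1 was highest for Dmrta2, at 2.33 CPM (next 1.85), and dosed striatum M5 was lowest for Krt10, at 13.2 CPM (next 15.7). Vehicle striatum M2 had the highest GC slope of its group, at 0.0146 (next -0.0372).

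The effect of 1.0 mg/kg differed between striatum and cortex, by the test of the difference itself in edgeR with and without offsets, for 26 of 38 genes checked. Of all genes tested 0.823% were called in both fits. The 10 higher and 10 lower genes of largest effect were named because both fits called them, so their flags were fixed in advance. The rest of the 38 were Htt, Pde10a and list members with the smallest p without offsets. The count is therefore not separate support. The tissue difference (striatal minus cortical log2 effect) was 2.79 for Ttr, 2.01 for Folr1, 1.94 for Aqp1, 1.71 for F5, 1.17 for Otx2 and 0.88 for Kl. Among activity genes it was 1.5 for Egr2, 1.11 for Junb, 0.95 for Egr4, 0.93 for Nr4a1, 0.93 for Fos, 0.64 for Per1 and 0.61 for Sik1. It was 0.89 for Dmrta2, 0.44 for Dnajb5 and 0.44 for Cacna1c. Below zero, it was -0.39 for Nrep, -0.36 for Hmgb3, -0.35 for Rpl39, -0.35 for Krt10, -0.35 for Atp5mpl, -0.32 for Pigc, -0.30 for Rpl27a, -0.29 for Rpl9, -0.27 for Fut9 and -0.27 for Tmsb10.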

How the results depend on the processing

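Counts of genes called in the tissue difference (1144 higher and 1118 lower with the replicate block) stayed within 1.5 times without the replicate block (887 and 865). They were 177 and 227 with GC offsets, 101 and 111 with GC and length offsets, 1770 and 1753 with a tissue-by-sex term, and 0 and 0 with the L number as a factor. With all 4 Q175 arms in 1 fit 1986 were higher, and limma on log2 FPKM called 682 lower with a pseudocount of 0.1 and 692 with 1. Without dosed F1 and F4 457 were lower, and with offsets as well 98 were higher and 47 lower. Females alone gave 2317 and 1817, males alone 12 and 0. Without the 5 dosed mice with an L1 library there were 33 and 9, and with offsets 3 and 2. Leaving out 1 mouse gave 368 (vehicle F2) to 1855 (dosed M2) higher and 599 (vehicle F2) to 1871 (dosed M1) lower.

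Within striatum (138 higher and 48 lower) offsets left 5 and 0, no filter on low counts 49 and 7, and the 17 libraries of both arms alone gave 317 and 77. Leaving out 1 mouse gave 17 (vehicle M1) to 525 (dosed M2) higher and 5 (vehicle F2) to 241 (dosed M2) lower. Within cortex (1924 and 1725) offsets left 422 and 351, the 17 libraries gave 882 and 917, and the set without dosed F1 and F4 gave 1076 and 1062. Leaving out 1 mouse there gave 1319 to 2082 higher and 1250 to 1869 lower. With offsets, 25 genes were lower at 3.2 mg/kg, 620 higher and 297 lower at 0.32 mg/kg, and 81 higher at 1.0 against 3.2 mg/kg. The cause of these moves was not tested.

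Pde10a, which was not called, changed sign to 0.02 with GC offsets, 0.06 with the sex term, 0.24 with the L number, 0.04 and 0.03 on FPKM, 0.10 in females and 0.01 in males, and ran from -0.11 to 0.03 when 1 mouse was left out. With offsets mt-Nd4l was at 0.04, mt-Co2 at 0.00, Hspe1 at 0.01, Hcn2 at -0.06 and Kcnc1 at 0.00, and with GC offsets alone Hcn2 was at -0.04. With offsets and without F1 and F4, Hspe1 was at 0.01 and Hcn2 at -0.05. With offsets and without the L1 mice, mt-Nd4l was at 0.05, mt-Co2 at 0.03, mt-Nd2 at 0.00 and Hcn2 at -0.06.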
